A study of Mus musculus with 14 samples.

Results

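Whole pancreatic islets labelled TSC1 KO were compared with control islets from the same deposited table. The members are the 4 libraries whose titles carry the prefix RC, 2 labelled TSC1 KO and 2 labelled control, out of 14 libraries in the series. All 4 are labelled as whole islets of C57BL/6 mice aged 8 weeks. The text on the study's design calls the first group βTSC1 KO, so the deletion is described as one in β-cells, and gives the libraries as duplicates. The Cre driver, the Tsc1 allele, the genotype of the controls, the meaning of RC, the sex of the mice and the number of mice behind each library are not stated in the labels. The comparison addresses which islet transcripts differ when this gene is deleted in β-cells. It carries the limit that whole islets hold other endocrine, endothelial, duct, stromal and immune cells beside the targeted ones.

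TSC1 (hamartin) and TSC2 (tuberin) form a complex that keeps the small GTPase RHEB inactive and so restrains mTORC1, the kinase complex that couples nutrients to protein, lipid and nucleotide synthesis. Cells that lose either protein are known for sustained mTORC1 signalling. AMPK, the kinase that senses low cellular energy, also restrains mTORC1, by phosphorylating TSC2 and the mTORC1 subunit raptor. In β-cells these pathways bear on cell size, insulin synthesis and the mitochondrial metabolism that links glucose to insulin release.

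The 4 libraries held fewer gene counts in the knockout group, 4392206 and 3507929, than in the control group, 5843371 and 6212629. Transcripts encoded in the mitochondrial genome, whose symbols begin with mt-, took 39.77% and 46.83% of the counts in the knockout libraries and 12.36% and 9.05% in the controls. Without these rows 2645251 and 1865072 counts remained in the knockout libraries and 5121092 and 5650459 in the controls. The rest of the counts were spread differently as well: outside the mt- rows, the most abundant genes that together make up 50% of the counts numbered 1028 and 979 in the knockout libraries and 281 and 223 in the controls. Of 14515 genes tested with edgeR's quasi-likelihood test, 1252 were called higher (8.63%) and 1451 lower (10.0%) in knockout islets at a Benjamini-Hochberg adjusted p under 0.05, 18.6% in either direction. With 2 libraries a side these calls need both knockout libraries: without knockout replicate 1 or 2 edgeR called 0 genes, while 3535 and 3061 genes had an unadjusted p under 0.05, limma-voom called 0 and DESeq2 called 844 and 555. The direction was the same in all 2688 and all 2689 called genes that could still be fitted. Since the groups overlap in no called gene, leaving out a library could hardly change a direction, so this adds no support. Levels below are CPM, counts scaled with TMM factors to a common library total, values in pairs are replicates 1 and 2 of a group, and "rose" and "fell" mark genes past the adjusted threshold. For every called gene both knockout libraries lay on the same side of both controls, as they did above for 33.6% and below for 34.0% of all genes tested.

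**Figure D1:**
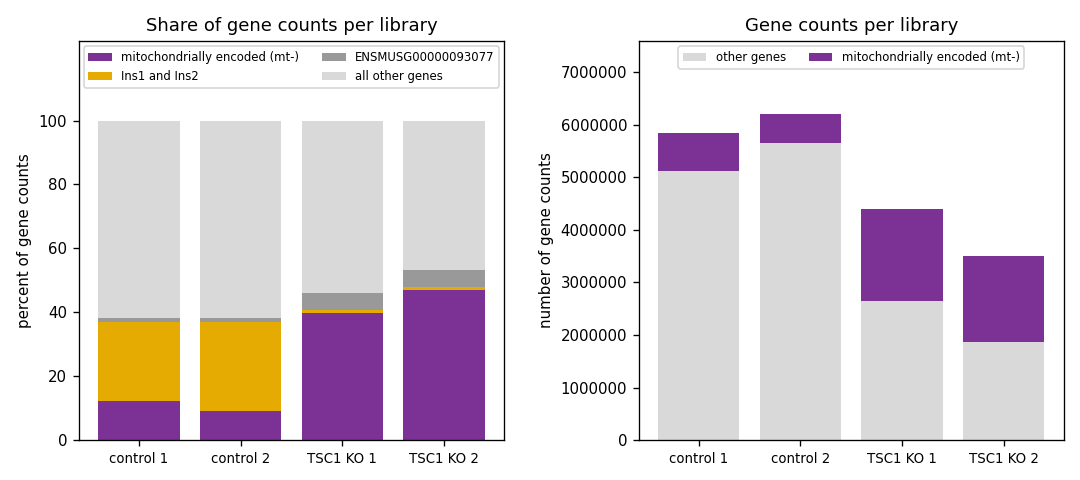
Share of gene counts (percent, left) and number of gene counts (right) for each of the 4 libraries. The bars of the knockout libraries are 39.77% and 46.83% mitochondrially encoded counts against 12.36% and 9.05% in the controls, and the band of Ins1 and Ins2 shrinks from 24.53% and 27.86% to 1.05% and 0.97%.

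The targeted gene did not separate the groups. Tsc1 stood at 31.0 and 34.45 CPM in the libraries labelled TSC1 KO and at 25.12 and 54.14 in the controls, so the knockout values lie between the control values (log2 fold change -0.28 ± 0.38 SE, edgeR adjusted p = 0.638). Without control replicate 1 the log2 fold change was -0.73 and the adjusted p 0.0415, and over all alternatives the adjusted p ran from 0.0415 to 0.843. Gene counts do not show which exons the reads cover, and the design describes no deletion outside β-cells, so this row is a weak check of the labels. Tsc2 was at 108.8 and 113.0 CPM in knockout islets and 154.8 and 145.2 in controls and was not called (adjusted p = 0.193).

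The libraries carried the transcripts that mark islets. Ins1, Ins2, Iapp, Gcg, Sst, Ppy, Chga and Chgb were present in all 4 libraries, as were the transcription factors Pdx1 and Hhex. Chgb, the granule protein secretogranin I, was at 143.1 and 76.92 CPM in knockout islets and 581.7 and 886.4 in controls. X- and Y-linked transcripts varied within groups: Xist, the X-inactivation RNA, was at 240.7 and 344.5 CPM in knockout islets and 144.4 and 952.8 in controls, and the Y-linked Ddx3y was at 12.58 and 0 against 21.49 and 7.504. Xist was called lower without control replicate 1, at a log2 fold change of -1.70 (edgeR adjusted p = 0.00948, range 0.00948 to 0.788). Among 5 sex-linked genes tested edgeR called 0, none had an unadjusted p under 0.05, and DESeq2 and limma-voom called 0.

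Insulin transcripts were the most abundant of the transcripts that fell. Ins2, the insulin gene that mice share with other mammals, was at 4209 and 5489 CPM in knockout islets and 149800 and 174200 in controls. Each control library was more than an order of magnitude above each knockout library (log2 fold change -5.06, adjusted p = 0.0105, 33.4-fold lower). Ins1, the rodent retrogene copy, was at 6582 and 5880 CPM against 76650 and 80430 (log2 fold change -3.66 ± 0.46 SE, adjusted p = 0.0118). Because Ins2 fell further than Ins1, the number of Ins2 counts per Ins1 count was 0.64 and 0.93 in knockout islets and 1.96 and 2.17 in controls. The genes are close copies, and some reads of one may be counted for the other. Leaving the mt- rows out of the totals did not close the gap: insulin transcripts then made up 1.75% and 1.82% of the remaining counts in knockout islets and 27.99% and 30.63% in controls.

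The Ins1 promoter is shown because it holds the E element, the sequence that NEUROD1 dimers are known to bind, in one of the genes with the largest change. The sequence is the 250 bases upstream of the gene's start in RefSeq's table for GRCm38.p6 (chr19:52264047-52264296, plus strand), 5′ to 3′. Capitals mark GCCATCTG, the E element, which lies from base -86 to base -79.
Ins1: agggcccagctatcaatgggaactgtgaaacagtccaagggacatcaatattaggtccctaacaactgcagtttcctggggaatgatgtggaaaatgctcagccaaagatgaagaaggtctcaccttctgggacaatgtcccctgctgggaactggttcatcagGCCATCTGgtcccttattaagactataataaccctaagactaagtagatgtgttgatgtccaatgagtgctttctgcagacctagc
The same letters, read on either strand, occur in 0.79% of the 10441 promoters of tested genes in that table and in 1.09% of all 27025. They were found in 9 of 1091 promoters of genes that fell (0.825%) and in 11 of 902 of genes that rose (1.22%). Of 18 granule cargo genes with a promoter 1 held the element, and of 17 β-cell transcription factors 0. A second insulin element that was searched, CTAATG, was found in 0 of these 18 and 0 of these 17. A match of this kind is a description of the sequence and not a measured binding site.

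The cargo and membrane proteins of the insulin granule fell as a group. Of 22 tested genes of this list, 20 fell (90.9%, beside 10.0% of all genes), none rose and 2 were not called. The median log2 fold change was -2.72, beside -0.003 over all genes tested. Chga, which encodes the granule protein chromogranin A, was at 1580 and 1201 CPM in knockout islets and 5104 and 7707 in controls (log2 fold change -2.20, adjusted p = 0.0263). Iapp, the islet amyloid polypeptide released with insulin, was at 1724 and 1646 CPM against 6517 and 7767 (log2 fold change -2.08, adjusted p = 0.0234). Slc30a8, the zinc transporter that loads insulin granules, was at 44.51 and 31.77 CPM against 335.1 and 511.0 (log2 fold change -3.47, adjusted p = 0.0106). The groups are apart in each of these genes. Ucn3, a peptide that marks mature β-cells, fell from 282.8 and 384.2 CPM to 60.59 and 46.15, and Sytl4, the granule-docking protein granuphilin, from 124.5 and 240.0 to 19.34 and 16.39. The prohormone convertases that cut proinsulin, named here after their values were seen, fell too, with log2 fold changes of -2.76 for Pcsk1 and -3.42 for Pcsk2. The members without a call were Pam, the peptide-amidating enzyme, at 203.7 and 202.0 CPM against 225.9 and 265.6, and Npy, at 68.52 and 39.8 against 98.42 and 90.34. Ins2 counts per Chga count were 2.66 and 4.57 in knockout islets and 29.35 and 22.6 in controls, so the insulin transcript was lower also relative to this general endocrine granule transcript. In bulk islets, fewer cells of a type and less RNA per cell cannot be told apart.

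Transcription factors that set β-cell identity fell in most cases. Of 22 tested, 12 fell (54.55%, beside 10.0% of all genes), 3 rose (13.64%, beside 8.63%) and 7 were not called (median log2 fold change -1.92). Mlxipl, the glucose-responsive factor ChREBP, changed most, from 415.8 and 494.1 CPM in controls to 32.16 and 16.39 in knockout islets (log2 fold change -4.21 ± 0.42 SE, adjusted p = 0.0105). Nkx6-1, which maintains the β-cell fate, fell from 155.5 and 213.0 CPM to 17.71 and 20.4 (log2 fold change -3.28). Neurod1, whose product binds the insulin E element, fell from 53.08 and 54.88 CPM to 7.92 and 6.02 (log2 fold change -2.93). The pan-endocrine factors Isl1 and Insm1 fell by similar amounts, with log2 fold changes of -2.69 and -3.31. Mafa, a late marker of β-cell maturity, was at 9.79 and 8.70 CPM against 32.86 and 63.85 (log2 fold change -2.38, adjusted p = 0.0169). Pdx1 showed the smallest of the 12 falls, from 50.55 and 79.01 CPM to 22.61 and 24.41 (log2 fold change -1.46, adjusted p = 0.0222). The 3 members that rose, named after their values were seen, were Foxo1, Hnf4a and Glis3, with log2 fold changes of 0.77, 1.05 and 1.46. The call of Foxo1 was lost with the mt- rows left out of the totals (edgeR adjusted p = 0.0513), with library size as the only scaling (0.141), with DESeq2 (0.0907), under the replicate block (0.0818) and without control replicate 1 (0.0503, log2 fold change 0.69). That of Hnf4a was lost with library size as the only scaling (0.0611), with DESeq2 (0.0514) and under the block (0.0547).

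Several transcripts of glucose sensing fell. G6pc2, an islet glucose-6-phosphatase, fell from 1045 and 1654 CPM to 126.1 and 132.4 (log2 fold change -3.38, adjusted p = 0.0112). Slc2a2, the glucose transporter GLUT2, was at 60.83 and 84.95 CPM against 111.1 and 202.0. Its groups do not overlap, but it was not called (log2 fold change -1.10, adjusted p = 0.0788). With all 4 libraries DESeq2 called it lower (adjusted p = 0.0462). edgeR did so with library size as the only scaling (0.0377), without the filter (0.0255) and with the spread shared over the 8 islet libraries (0.0186). Its highest adjusted p with all 4 libraries was 0.17. Without control replicate 1 its log2 fold change was -1.47. Pcx, pyruvate carboxylase, which feeds pyruvate into anaplerosis, fell from 84.36 and 115.2 CPM to 18.41 and 14.05, and Trpm5, a calcium-activated cation channel, from 128.4 and 160.7 to 18.41 and 19.06. Of the 17 tested genes of glucose sensing and triggering, 10 fell (58.8%, beside 10.0% of all genes) and none rose (median log2 fold change -2.11).

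Ion channels and receptors on the β-cell surface followed. Abcc8, the sulfonylurea receptor subunit of the ATP-sensitive potassium channel, was at 130.0 and 33.11 CPM in knockout islets and 828.9 and 1250 in controls. The knockout libraries differ from each other by several fold and both lie well below the controls (log2 fold change -3.67, adjusted p = 0.0275). Its call also needed control replicate 2, without which the log2 fold change was -3.34 and the adjusted p 0.119, within a range of 2.21e-08 to 0.153 over the alternatives. The tandem-pore potassium channels Kcnk16 and Kcnk3 fell, with log2 fold changes of -2.15 and -1.82. Of 11 tested potassium channel genes 8 fell (72.7%, beside 10.0% of all genes). DESeq2 called 8 lower and 1 higher, and limma-voom 7 lower and 1 higher. Gcgr, the glucagon receptor, had one of the largest falls in the table, from 64.77 and 60.18 CPM to 2.56 and 1.00 (log2 fold change -5.03, adjusted p = 0.0105). Gcgr passed the filter on low counts through the control libraries, so its call is a description only. Gipr, the receptor of the incretin GIP, fell from 137.1 and 188.2 CPM to 14.22 and 10.37 (log2 fold change -3.71). Glp1r, the receptor of the other incretin, was at 7.22 and 8.70 CPM against 15.64 and 58.26. It was not called in the main fit (adjusted p = 0.0873). DESeq2 called it lower (adjusted p = 0.00821), as did edgeR with the spread shared over the 8 islet libraries (adjusted p = 0.0298). Its highest adjusted p with all 4 libraries was 0.263. Without control replicate 1 its log2 fold change was -2.88. Of 14 tested receptor genes 10 fell (71.4%, beside 10.0% of all genes), and none rose. Among 15 tested genes of the exocytosis machinery 11 fell (73.3%, beside 10.0% of all genes) and 1 rose, the exocyst subunit Exoc6 (6.67%, beside 8.63%). Those that fell include the vesicle proteins Syt13 (454.0 and 665.5 CPM down to 67.12 and 37.79), Syt4 (52.13 and 63.12 down to 5.59 and 2.68) and Rab3a (78.04 and 77.54 down to 20.51 and 19.06).

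**Figure D2:**
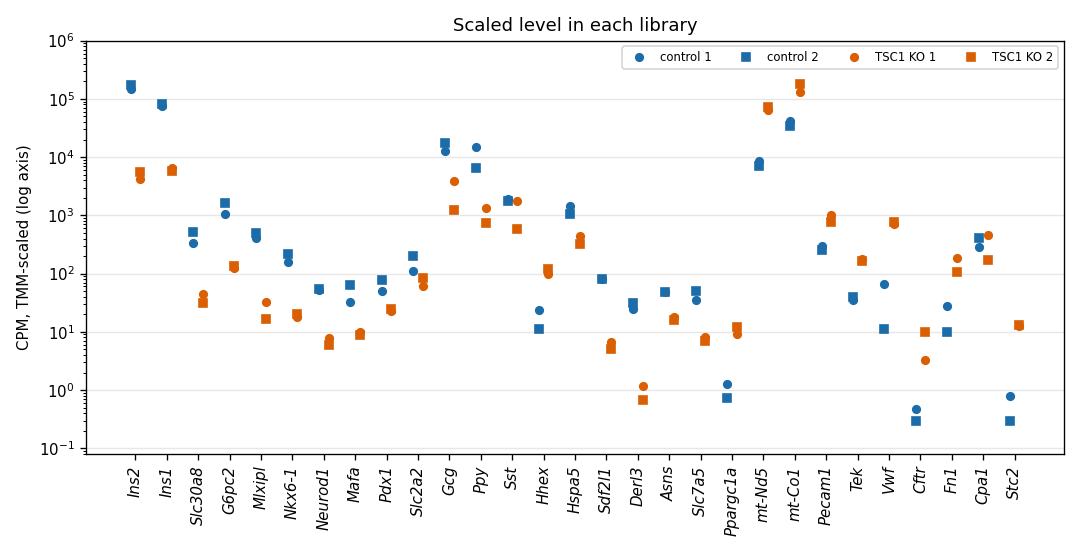
Scaled level (CPM, log axis) of 29 genes in each library. Circles are replicate 1 and squares replicate 2, blue for control and orange for TSC1 KO. Ins2 falls from 149800 and 174200 to 4209 and 5489, while mt-Nd5 climbs from 8684 and 7114 to 63660 and 72560.

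The hormones of the other islet cells did not move as one. Gcg, glucagon of the α-cells, was at 3873 and 1228 CPM against 12830 and 17260 (log2 fold change -2.56, adjusted p = 0.0447). Its fall lost the call without control replicate 2 (adjusted p = 0.0677), and the adjusted p over the alternatives ran from 2.78e-05 to 0.217. Ppy, pancreatic polypeptide, was at 1353 and 749.1 CPM against 15080 and 6538 (log2 fold change -3.36, adjusted p = 0.0216). Sst, somatostatin of the δ-cells, was at 1733 and 572.6 CPM against 1899 and 1769. Its first knockout library sits just under the controls and its second well below them, and it was not called (log2 fold change -0.67, adjusted p = 0.44). Hhex, the transcription factor that marks δ-cells in islets and is also expressed in duct and endothelial cells, rose from 23.54 and 11.18 CPM to 100.2 and 118.7 (log2 fold change 2.66, adjusted p = 0.0146). Of the 12 tested genes of the other hormone lineages 8 fell (66.7%, beside 10.0% of all genes), 1 rose (8.33%, beside 8.63%) and 3 were not called. The 5 hormone genes Ins1, Ins2, Gcg, Sst and Ppy held 1.73% and 1.19% of counts in knockout islets and 27.76% and 30.65% in controls. Within those hormone counts the insulin genes made up 60.8% and 81.68% in knockout islets and 88.37% and 90.87% in controls, and Sst 9.76% and 4.11% against 0.74% and 0.63%. Gcg counts per Chga count were 2.45 and 1.02 in knockout islets and 2.51 and 2.24 in controls, so these groups overlap in range.

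Genes that β-cells normally keep low were tested as a list of disallowed genes. Of 16 tested, 5 rose and none fell (31.2% against 8.63% of all genes), with a median log2 fold change of 1.46. The list gave 13 rises without control replicate 1, and 6 rises and 1 fall without control replicate 2. Smad3, a TGF-β signal transducer, rose from 15.32 and 11.18 CPM to 58.26 and 59.2 (log2 fold change 2.15), and the chemokine Cxcl12 from 28.59 and 15.74 to 111.2 and 145.8 (log2 fold change 2.53). The best known members gave no call. Ldha, lactate dehydrogenase A, was at 105.6 and 108.4 CPM against 82.78 and 31.78 (adjusted p = 0.212). Leaving out control replicate 1 gave Ldha a call, at a log2 fold change of 1.75 (adjusted p = 0.00172, range 0.00172 to 0.484). Slc16a1, the lactate transporter MCT1, was at 6.99 and 8.70 CPM against 7.11 and 2.35. Several disallowed genes, among them Cxcl12, are also expressed by stromal, duct or endothelial cells, and the levels of those markers are given further on. Their part in these rises was not tested. Of 12 tested genes of immature and progenitor endocrine cells, 2 rose (16.7%, beside 8.63% of all genes) and 4 fell (33.3%, beside 10.0%). Sox4 rose, from 28.75 and 27.51 CPM to 63.62 and 84.95, and the tyrosine hydroxylase gene Th fell from 24.33 and 23.25 to 5.59 and 5.69.

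The endoplasmic reticulum (ER), where proinsulin is folded, showed falls through most of its folding machinery. Of 28 tested ER chaperones and folding enzymes 16 fell, none rose and 12 were not called (57.1% against 10.0% of all genes; median log2 fold change -1.03). Sdf2l1, a co-chaperone of BiP, fell from 79.47 and 81.21 CPM to 6.76 and 5.02 (log2 fold change -3.75 ± 0.24 SE, adjusted p = 0.0105). Manf, a secreted ER stress protein that protects β-cells, fell from 218.2 and 201.9 CPM to 37.05 and 39.13 (log2 fold change -2.46), and Fkbp11, a prolyl isomerase of secretory cells, from 51.82 and 52.08 to 5.83 and 9.70 (log2 fold change -2.77). Creld2 was at 21.44 and 21.4 CPM against 80.57 and 82.1, with replicates nearly equal in both groups (log2 fold change -1.92). Hspa5, the master chaperone BiP, was at 442.8 and 316.4 CPM against 1452 and 1036 (log2 fold change -1.71, adjusted p = 0.0334), and Hsp90b1, GRP94, at 266.8 and 231.4 against 505.9 and 599.3 (log2 fold change -1.15, adjusted p = 0.0455). With library size as the only scaling and the mt- rows left out, a setting added after seeing the data that moves the median of all genes by 0.41, the list gave 9 falls and 1 rise, and Hspa5 (adjusted p = 0.0526, range 1.61e-05 to 0.247) and Hsp90b1 (adjusted p = 0.109, range 0.00109 to 0.295) lost their calls.

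Sensors and degradation factors of the unfolded protein response moved less as a group. Of 26 tested, 8 fell (30.8%, beside 10.0% of all genes) and none rose (median log2 fold change -0.57). The number was 13 without control replicate 1, and with mt- rows left out and library size as the only scaling 5. Derl3, a membrane protein of ER-associated degradation, had the deepest fall, from 25.12 and 30.75 CPM to 1.17 and 0.67 (log2 fold change -4.84, adjusted p = 0.0105). Edem2, which trims misfolded glycoproteins, fell from 145.3 and 157.1 CPM to 42.18 and 44.48, and the ubiquitin ligase Syvn1 from 113.3 and 131.4 to 46.38 and 39.46. The sensor kinases themselves were not called. Ern1, IRE1α, was at 31.23 and 29.76 CPM against 52.13 and 130.4 (adjusted p = 0.0671). With all 4 libraries DESeq2 called Ern1 lower (adjusted p = 0.0127). edgeR did so with library size as the only scaling (0.0438) and with the spread shared over the 8 islet libraries (0.0167). Its highest adjusted p with all 4 libraries was 0.104. Without control replicate 1 or 2 its log2 fold changes were -2.09 and -0.77. Eif2ak3, PERK, was at 47.31 and 52.51 CPM against 34.12 and 45.17. Among 46 tested genes of ER entry and vesicle transport 24 fell (52.2%, beside 10.0% of all genes) and none rose. With mt- rows left out and library size as the only scaling 13 fell. The falls ran from the translocon (Sec61b, 85.94 and 90.48 CPM down to 30.06 and 33.78) and its associated protein Ssr4 (172.4 and 191.4 down to 44.28 and 42.14) to the signal peptidase subunit Sec11c (85.94 and 94.46 down to 26.1 and 36.12).

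The promoters of 3 of these chaperones are shown because they share a sequence: the ER stress element CCAAT followed after 9 bases by CCACG, the site that ATF6 and XBP1 recognise together with NF-Y. Each line gives 250 bases upstream of the start in the strand of the gene, from RefSeq's table for GRCm38.p6, with matches in capitals. A match on the opposite strand reads as its reverse complement. The Hspa5 window is chr2:34771840-34772089 (plus strand), that of Creld2 chr15:88819396-88819645 (plus strand) and that of Hsp90b1 chr10:86705445-86705694 (minus strand). Hspa5 matches from base -65 to -47, Creld2 on the opposite strand from -126 to -108, and Hsp90b1 from -212 to -194 and again, on the opposite strand, from -107 to -89.
Hspa5: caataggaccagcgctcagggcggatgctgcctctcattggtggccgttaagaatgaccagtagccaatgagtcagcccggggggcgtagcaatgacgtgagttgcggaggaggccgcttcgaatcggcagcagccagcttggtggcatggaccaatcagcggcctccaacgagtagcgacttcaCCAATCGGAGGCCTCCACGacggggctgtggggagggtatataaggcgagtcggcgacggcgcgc
Creld2: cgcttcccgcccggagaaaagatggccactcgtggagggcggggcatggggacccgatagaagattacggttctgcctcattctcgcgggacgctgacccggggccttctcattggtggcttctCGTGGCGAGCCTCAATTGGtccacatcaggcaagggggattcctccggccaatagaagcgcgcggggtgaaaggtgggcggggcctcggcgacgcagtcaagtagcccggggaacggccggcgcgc
Hsp90b1: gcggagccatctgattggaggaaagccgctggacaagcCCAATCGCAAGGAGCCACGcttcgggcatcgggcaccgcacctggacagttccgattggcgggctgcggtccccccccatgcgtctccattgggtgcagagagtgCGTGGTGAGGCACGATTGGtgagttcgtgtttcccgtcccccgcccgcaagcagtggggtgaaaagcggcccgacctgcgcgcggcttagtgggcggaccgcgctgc
On both strands this element was found in 8 of the 24 list members with a promoter in the table (33.3%), in 18 of the 10441 tested genes with one (0.172%) and in 32 of all 27025 promoters (0.118%). The other holders in the list were Pdia6, Calr, Dnajc3, Ero1lb and Canx, of which all but Canx fell, and in the degradation list Derl3 and Syvn1. Among promoters of genes that fell it was found in 11 of 1091 (1.01%) and among those of genes that rose in 2 of 902 (0.222%). Of the 24 list members with a promoter 13 fell, and of the 8 holders 7 fell. Sdf2l1 and Fkbp11, which fell further than the chaperones shown, were searched and held no match. No promoter was matched for Manf. These counts describe the sequences, and no binding was measured.

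The amino acid response, a set of genes read from ATF4, was split. Of 29 tested members 7 fell (24.1%, beside 10.0% of all genes) and 1 rose (3.45%, beside 8.63%). The median log2 fold change was -0.32, which becomes 0.08 with mt- rows left out and library size as the only scaling. Chac1, which degrades glutathione, fell from 26.38 and 25.45 CPM to 2.56 and 4.35 (log2 fold change -2.94, adjusted p = 0.0109). Slc7a5, the leucine transporter LAT1, fell from 35.39 and 50.47 CPM to 8.16 and 7.02 (log2 fold change -2.49), and Asns, asparagine synthetase, from 48.97 and 48.85 to 17.71 and 16.05 (log2 fold change -1.53). Stc2, stanniocalcin 2, went the other way, from 0.79 and 0.29 CPM to 12.58 and 13.04 (log2 fold change 4.52 ± 0.52 SE, adjusted p = 0.0109). Stc2 passed the filter on low counts through the knockout libraries, so its call is a description only. Atf4 itself was at 187.1 and 172.6 CPM against 348.4 and 302.8, with groups that do not overlap, and was not called (adjusted p = 0.0683). With all 4 libraries it was called lower by DESeq2 (adjusted p = 0.0184) and by limma-voom (adjusted p = 0.0494). edgeR called it lower with the spread shared over the 8 islet libraries (adjusted p = 0.0152). Its highest adjusted p with all 4 libraries was 0.241. Without control replicate 2 its log2 fold change was -0.96. Of 20 aminoacyl-tRNA synthetases 5 fell (25.0%, beside 10.0% of all genes) and none rose, while 1 fell with mt- rows left out and library size as the only scaling (median -0.065 in place of -0.47). Among the 5 was Cars, the cysteine enzyme, at 17.94 and 25.08 CPM against 77.73 and 65.18 (log2 fold change -1.74).

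The Asns and Chac1 promoters are shown for the element these genes share, TGATGNAAN, the composite C/EBP-ATF site bound by ATF4. Both windows span 250 bases upstream of the start in GRCm38.p6, chr6:7693210-7693459 on the minus strand for Asns and chr2:119350992-119351241 on the plus strand for Chac1. The match, in capitals, lies from base -23 to -15 in Asns and, on the opposite strand, from -194 to -186 in Chac1.
Asns: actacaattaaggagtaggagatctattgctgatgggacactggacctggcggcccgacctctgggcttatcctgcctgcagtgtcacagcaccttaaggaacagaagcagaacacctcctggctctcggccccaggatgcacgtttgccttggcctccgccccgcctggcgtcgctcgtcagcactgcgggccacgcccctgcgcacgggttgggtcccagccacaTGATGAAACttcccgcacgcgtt
Chac1: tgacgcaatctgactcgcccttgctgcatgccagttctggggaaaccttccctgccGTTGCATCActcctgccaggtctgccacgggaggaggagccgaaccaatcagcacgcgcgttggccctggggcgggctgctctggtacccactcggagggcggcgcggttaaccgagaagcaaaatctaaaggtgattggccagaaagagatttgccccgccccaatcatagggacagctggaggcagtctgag
The element was found in 6 of 26 members with a promoter (23.1%) and in 203 of 10441 tested genes (1.94%), with shares of 2.11% among genes that fell and 2.66% among genes that rose.

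**Figure D3:**
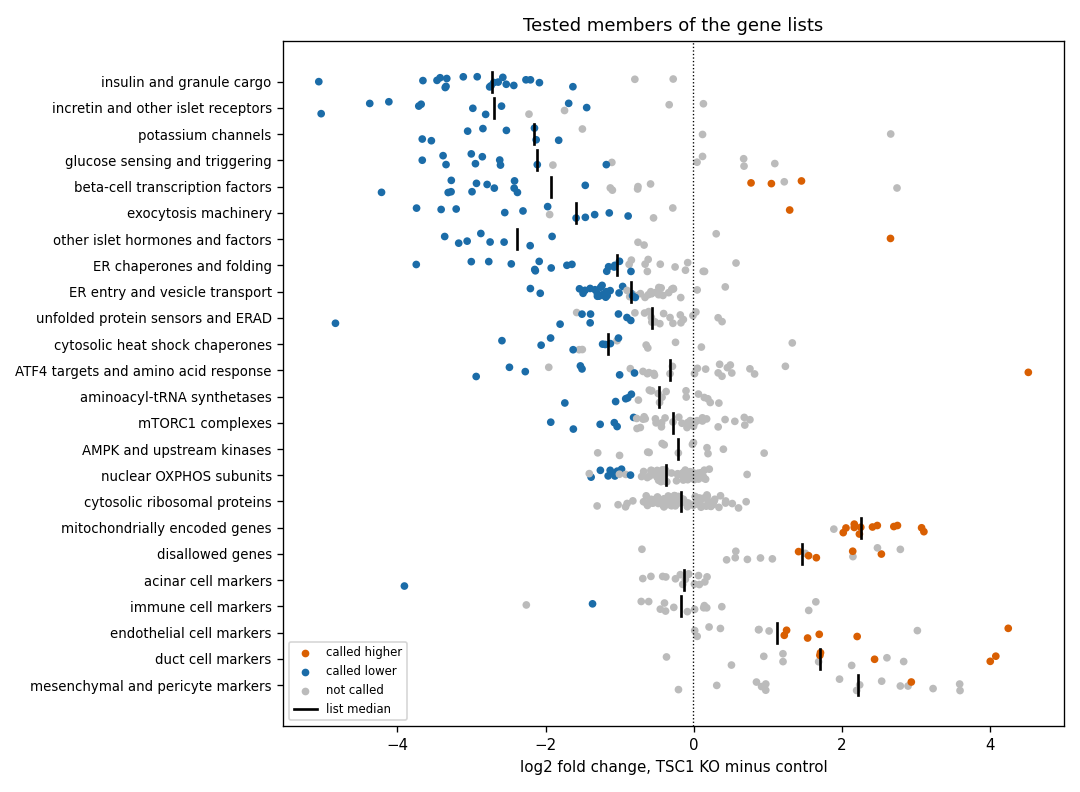
Log2 fold change (TSC1 KO minus control) of the tested members of 24 gene lists, 1 point a gene. Orange points were called higher, blue points lower and grey points not called, black bars are list medians and the dotted line is the median of all genes. Granule cargo (median -2.72) and receptors (-2.70) lie far to the left, ribosomal proteins (-0.17) at the line, and mitochondrially encoded genes (2.26) to the right.

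Mitochondrially encoded messages rose together. Of the 13 protein-coding genes of the mitochondrial genome 12 rose (92.3%, beside 8.63% of all genes), with a median log2 fold change of 2.26. The other, mt-Atp6, was not called (edgeR adjusted p = 0.0506), although DESeq2 and limma-voom called it higher. Its log2 fold change was 2.46 without control replicate 1. With the spread shared over the 8 islet libraries 9 of the 13 were called, and 3 under the replicate block. Without control replicate 2 their median log2 fold change was 1.93. The largest changes were in complex I subunits, as the gene mt-Nd5 rose from 8684 and 7114 CPM to 63660 and 72560 (log2 fold change 3.11 ± 0.46 SE, adjusted p = 0.0146), and mt-Nd6, the message read from the other strand of the circle, from 2560 and 1348 to 15090 and 17900 (log2 fold change 3.08). With the strand setting of the counting not given, reads of neighbouring genes on opposite strands, such as these, may have been assigned to either. The cytochrome oxidase subunit mt-Co1, at 131300 and 180800 CPM against 41060 and 34010, had a log2 fold change of 2.06 (adjusted p = 0.0348). Without control replicate 1 or 2 mt-Co1 lost its call (adjusted p = 0.0523 and 0.0865, range 3.21e-09 to 0.212), as mt-Cytb (0.083, range 9.04e-09 to 0.21) and mt-Nd4 (0.0586, range 1.2e-08 to 0.199) did without control replicate 2. The increase was therefore uneven: mt-Nd5 made up 15.64% and 13.21% of mt- counts in knockout islets and 7.61% and 8.6% in controls, while mt-Co1 made up 32.25% and 32.91% against 35.99% and 41.12%. Of 24 tested mt- rows, transfer and ribosomal RNAs included, 18 rose and none fell.

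The nuclear partners of these subunits did not rise. Of 73 nuclear genes for subunits of the respiratory chain and ATP synthase 10 fell, none rose and 63 were not called (13.7% lower against 10.0% of all genes). Their median log2 fold change of -0.38 became 0.02 with mt- rows left out and library size as the only scaling, where 1 rose and 2 fell. The accessory complex I subunits Ndufs6 and Ndufa11 fell with log2 fold changes of -1.26 and -1.13. For each nuclear subunit count there were 109 and 140.3 mitochondrially encoded subunit counts in knockout islets and 22.51 and 19.66 in controls. Of 39 tested genes for mitochondrial ribosomes and gene expression 1 fell, Ssbp1, which coats single-stranded mitochondrial DNA, and Tfam, which packages that DNA, was at 18.64 and 18.06 CPM against 22.12 and 16.48, within the range of the controls. Ppargc1a, the coactivator PGC-1α that promotes mitochondrial biogenesis, rose from 1.26 and 0.74 CPM to 9.32 and 12.04 (log2 fold change 3.39, adjusted p = 0.0135). It passed the filter on low counts through the knockout libraries, so its call is a description only. Of 12 tested biogenesis regulators 2 rose (16.7%, beside 8.63% of all genes) and none fell. DESeq2 called 1 higher, as did edgeR with library size as the only scaling and, of 13 tested, with mt- rows left out under TMM. With mt- rows left out and library size as the only scaling 6 of 13 rose.

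Of 35 tested genes for the mTORC1 and mTORC2 complexes, their nutrient sensors and the TSC complex, 6 fell and none rose (17.1% lower against 10.0% of all genes). The median log2 fold change was -0.28, and 0.13 with mt- rows left out and library size as the only scaling, where 5 rose and 2 fell. Those that fell include Castor2, a relative of the arginine sensor, from 130.2 and 176.6 CPM to 48.71 and 31.44 (log2 fold change -1.93), Rragb, a Rag GTPase, from 14.85 and 18.1 to 5.59 and 5.02 (log2 fold change -1.62), and Flcn, folliculin, from 67.3 and 98.87 to 38.92 and 30.1 (log2 fold change -1.26). The kinase gene Mtor was at 37.52 and 46.49 CPM against 31.6 and 45.61, so the ranges overlap. Of 25 outputs and feedback genes 1 fell and 1 rose (4% each, beside 10.0% and 8.63% of all genes). With mt- rows left out and library size as the only scaling 1 fell and 6 rose. Rps6kb2, the S6 kinase S6K2, fell from 61.93 and 55.03 CPM to 20.74 and 24.08 (log2 fold change -1.39). Hif1a, a factor whose translation mTORC1 promotes, rose from 25.59 and 24.13 CPM to 41.95 and 53.18 (log2 fold change 0.93, adjusted p = 0.0354), and lost its call without control replicate 2 (adjusted p = 0.0501, range 0.011 to 0.241). RNA counts do not measure the phosphorylation through which this pathway acts.

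AMPK subunits and their upstream kinases gave no call with all libraries and TMM. Among 13 tested genes edgeR called 0, with 1 higher and 3 lower at an unadjusted p under 0.05, and DESeq2 and limma-voom called 0. Other settings gave calls in both directions: 2 higher with mt- rows left out and library size as the only scaling (median log2 fold change 0.20 in place of -0.21), 3 lower with a spread shared over the 8 islet libraries, and 1 higher and 2 lower without control replicate 1. The catalytic subunit genes went different ways: Prkaa1 was at 28.66 and 27.76 CPM against 35.39 and 40.46, and Prkaa2 at 16.08 and 17.73 against 9.79 and 7.65. Prkaa2 had the lowest adjusted p of the list, 0.0627. It was called higher without control replicate 1, at a log2 fold change of 1.14 (adjusted p = 0.0417, range 0.022 to 0.299). The 77 cytosolic ribosomal protein genes, whose messages mTORC1 controls mainly at the level of translation, had a median log2 fold change of -0.17, or 0.23 with mt- rows left out and library size as the only scaling, where 5 rose. With all rows and TMM edgeR called 0 of them, with 4 lower and none higher at an unadjusted p under 0.05, and DESeq2 and limma-voom called 0. Many ribosomal protein genes have near-identical copies in the genome, so their counts are uncertain.

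Lipid and nucleotide synthesis are processes that mTORC1 promotes. Of 28 tested genes of cholesterol and fatty acid synthesis 7 fell (25.0%, beside 10.0% of all genes) and 1 rose, while 4 fell and 2 rose with mt- rows left out and library size as the only scaling. Insig1 and Sqle, which belong to the sterol-regulated set, fell with log2 fold changes of -1.29 and -1.26. Scd2, a fatty acid desaturase, rose from 78.52 and 70.77 CPM to 150.1 and 144.8 (log2 fold change 0.98). The lipogenic regulator Srebf1 was at 106.5 and 104.0 CPM against 79.78 and 82.54 and was not called. In fatty acid oxidation Cpt1a, the gate of mitochondrial fatty acid entry, rose from 58.61 and 45.17 CPM to 101.4 and 127.4 (log2 fold change 1.14), and Hadh, abundant in β-cells, fell from 272.5 and 400.5 to 114.2 and 105.7 (log2 fold change -1.61). Of 25 genes of the pentose phosphate and nucleotide pathways 3 rose and 3 fell, near the shares of all genes (8.63% and 10.0%), and 5 rose and 1 fell with mt- rows left out and library size as the only scaling. Named members are Ctps, CTP synthase, up from 11.85 and 8.97 CPM to 23.54 and 27.42 and Mthfd1l, a mitochondrial one-carbon enzyme, down from 15.64 and 22.36 to 4.20 and 4.01. Glycolysis (21 tested, 1 higher, 3 lower) and the TCA cycle (30 tested, 1 lower, Pcx) were mostly without calls, though without control replicate 1 glycolysis gave 6 higher and 4 lower and the TCA cycle 3 higher and 2 lower. Slc2a1, the glucose transporter GLUT1, was the glycolytic gene that rose, from 17.38 and 10.0 CPM to 34.49 and 41.14 (log2 fold change 1.46).

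Stress and growth lists differed among themselves. Of 16 cytosolic heat shock chaperones 8 fell (50%, beside 10.0% of all genes) and none rose (3 fell with mt- rows left out and library size as the only scaling). Hsph1 went down from 330.8 and 248.4 CPM to 66.88 and 28.76 (log2 fold change -2.59) and Hspe1, the mitochondrial co-chaperonin, from 45.02 and 40.02 to 11.19 and 9.03 (log2 fold change -2.06). In the antioxidant list 3 of 27 rose (11.1%, beside 8.63% of all genes) and 2 fell (7.41%, beside 10.0%), shares near the background, and with mt- rows left out and library size as the only scaling 7 rose and none fell. Nfe2l2, the regulator NRF2, rose from 46.92 and 36.19 CPM to 116.1 and 120.1 (log2 fold change 1.51), and its target Nqo1 from 3.63 and 3.97 to 13.52 and 12.04 (log2 fold change 1.74). Among 22 interferon response genes 4 rose (18.2%, beside 8.63% of all genes) and none fell, while DESeq2 called 3 higher and limma-voom 4. The rises were led by Ifit2 (5.53 and 5.15 CPM up to 19.81 and 14.05) and Oasl2 (20.7 and 12.06 up to 41.95 and 44.15). Of 23 cell cycle genes 3 rose, near the share of all genes (8.63%). They were the replication licensing factors Mcm3, Mcm5 and Mcm6 (log2 fold changes 1.29, 1.10 and 1.41). With mt- rows left out and library size as the only scaling 6 of 24 rose, beside 2922 of 14631 among all genes. Mcm5 lost its call without control replicate 1 (adjusted p = 0.0718, range 0.0132 to 0.23), while the proliferation marker Top2a (8.86 and 13.04 CPM against 5.53 and 10.0) overlapped between groups. Among 20 CDK inhibitors, D cyclins and p53 targets edgeR called 0, with 1 higher and 4 lower at an unadjusted p under 0.05, DESeq2 called 1 lower and limma-voom 0, and without control replicate 1 edgeR called 2 higher and 2 lower.

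Immediate early genes, which respond within minutes to handling of the tissue, were abundant in all libraries. Fos was at 2809 and 3430 CPM in knockout islets and 1747 and 1001 in controls. It was not called by edgeR (adjusted p = 0.1125) but was called higher by DESeq2 (adjusted p = 0.0102). Without control replicate 1 its log2 fold change was 1.64. Among 24 tested genes of that list edgeR called 0, with 7 higher at an unadjusted p under 0.05 and a lowest adjusted p of 0.0501. DESeq2 called 6 higher and limma-voom 1, and with mt- rows left out and library size as the only scaling edgeR called 7 higher. edgeR called 15 of the 24 higher without control replicate 1, at a median log2 fold change of 1.56. With all libraries the median was 0.96. Meg3, an imprinted long RNA abundant in β-cells and kept in the nucleus, was at 243.8 and 71.24 CPM against 1543 and 1886 (log2 fold change -3.44, adjusted p = 0.0241). Its call was lost without control replicate 2 (adjusted p = 0.061, range 1.25e-08 to 0.156). Neat1, another nuclear RNA, fell from 205.2 and 281.3 CPM to 88.56 and 63.54. The 4 tested nuclear RNAs together were at 566.5 and 229.1 CPM in knockout islets and at 2622 and 2616 in controls. The part that RNA quality or preparation had in the results above was not tested.

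Markers of cells other than endocrine cells moved with the groups to different degrees. Endothelial markers were higher: of 14 tested 6 rose (42.9%, beside 8.63% of all genes) and none fell (4 rose with library size as the only scaling). Their summed level was 7245 and 5595 CPM in knockout islets and 3079 and 3243 in controls. Tek, the angiopoietin receptor TIE2, rose from 34.6 and 39.28 CPM to 174.8 and 166.5 (log2 fold change 2.21 ± 0.22 SE, adjusted p = 0.0105). Pecam1 rose from 295.7 and 257.5 CPM to 1027 and 763.5, and Vwf, von Willebrand factor, from 66.19 and 11.18 to 706.4 and 761.8. Flt1, a VEGF receptor named after its values were seen, was at 616.2 and 422.1 CPM against 353.6 and 545.8, and the groups overlap. It was not called.

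Duct markers rose in part. Of 14 tested 5 rose (35.7%, beside 8.63% of all genes) and none fell. Onecut1 went up from 1.42 and 0.15 CPM to 9.32 and 17.73 (log2 fold change 4.08, or 6.26 without control replicate 1). Onecut1 and Cftr stood at 1.42 CPM or less in the controls. They passed the filter on low counts through the knockout libraries, so their part in this count is a description only. The summed level of the list was 3427 and 4819 CPM in knockout islets and 1973 and 640.6 in controls. Much of that range came from control replicate 2, which was low in the keratin Krt19 (3.24 CPM, against 185.5 in control replicate 1) and in Sox9 (1.62 against 28.91). Krt19 was at 241.9 and 365.5 CPM in knockout islets and was not called. Krt19 and Sox9 were called higher without control replicate 1, at log2 fold changes of 6.54 and 5.34 (adjusted p = 0.000519 and 0.000534, with ranges of 0.000519 to 0.733 and 0.000534 to 0.577). Sox9 was also called higher without control replicate 2, at a log2 fold change of 1.20 (adjusted p = 0.024). Cftr, the duct chloride channel, rose from 0.47 and 0.29 CPM to 3.26 and 10.03 (log2 fold change 4.00, adjusted p = 0.0269) and lost its call without control replicate 2 (adjusted p = 0.0516, range 0.00253 to 0.222).

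Stromal, acinar and immune lists showed few calls, 6.25% of each, beside 8.63% higher and 10.0% lower among all genes. Mesenchymal markers had a median log2 fold change of 2.22, yet 1 of 16 rose (5 without control replicate 1), fibronectin (Fn1), from 27.96 and 9.86 CPM to 183.4 and 105.7. Their summed level of 3038 and 7620 CPM in knockout islets against 2294 and 1520 in controls was carried by knockout replicate 2, where Col1a1 reached 1227 CPM against 108.6 in knockout replicate 1. Acinar markers overlapped between groups, at 4317 and 1892 CPM in knockout islets and 3090 and 4261 in controls, and of 16 tested 1 fell, the secretory transcription factor Bhlha15 (30.49 and 67.38 CPM down to 3.96 and 2.34). The trypsinogen Prss1 had no count in any library. Immune markers summed to 1689 and 1383 CPM against 1806 and 1232, and of 16 tested 1 fell, the complement gene C1qa. Of 9 tested Schwann and neural markers 1 rose, Erbb3, with sums of 268.7 and 243.1 CPM against 152.8 and 84.6. Erythroid markers summed to 213.5 and 122.1 CPM against 118.8 and 42.37. With all libraries edgeR called 0 of 5, none had an unadjusted p under 0.05, and DESeq2 and limma-voom called 0, but all 5 were called higher without control replicate 1 (median log2 fold change 2.01). Of the lymph node and fat list 2 genes were tested. Fabp4, also expressed by endothelial cells, rose from 52.77 and 26.04 CPM to 227.0 and 210.7, and the lymphotoxin gene Ltb was not called with all libraries but was called higher without control replicate 1. The fat genes Adipoq, Plin1, Lep and Cfd had no count in any library. The B-cell genes Ms4a1 and Cd79b were at 4.90 and 5.37 CPM in control replicate 1 and at 0.47 CPM or less in the other libraries, and without control replicate 2 the list gave 1 higher and 3 lower. The share of these cells in the falls of β-cell transcripts and in the rises described above was not tested.

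Among the largest rises were transcripts of the gastric mucosa. Muc6, a gland mucin, was at 15.15 and 25.08 CPM in knockout islets and 0.16 and 0.44 in controls (log2 fold change 5.93, adjusted p = 0.0105). Pgc, the protease precursor pepsinogen C, was at 62.92 and 65.22 CPM against 1.90 and 0 (log2 fold change 6.08, adjusted p = 0.0174, or 11.23 without control replicate 1, where the remaining control holds no count and the fitted value is no bound). Gkn3, a gastrokine, was at 47.77 and 145.1 CPM against 0.79 and 0 (log2 fold change 7.88). It lost its call without control replicate 1 or 2 (adjusted p = 0.0534 and 0.0849, range 0.00046 to 0.148). With Tff2, a trefoil peptide also used as a duct marker, 4 of the 5 tested stomach genes rose (80%, beside 8.63% of all genes). Gkn3, Pgc and Muc6 stood at 1.90 CPM or less in the controls, so they passed the filter on low counts through the knockout libraries and their count is a description only. The fifth, Atp4a, a subunit of the gastric proton pump, was at 5.59 and 3.68 CPM in knockout islets and 8.37 and 13.39 in controls. It was not called (adjusted p = 0.0921), although it was called lower without control replicate 1 (edgeR adjusted p = 0.035) and with the spread shared over the 8 islet libraries (0.0371). The list summed to 196.7 and 324.7 CPM in knockout islets and 29.86 and 25.75 in controls. Other stomach genes were without signal: Gkn1, Gkn2, Tff1, Muc5ac, Lipf and Atp4b had no count in any of the 4 libraries. The matrix genes Hmcn1 and Svep1 rose with log2 fold changes of 4.99 and 4.90.

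Receptors and secreted factors that signal between islet cells also differed. Lepr, the leptin receptor, rose from 14.69 and 6.18 CPM to 61.52 and 82.27 (log2 fold change 2.78, adjusted p = 0.0177), while its feedback target Socs3 was at 404.6 and 289.0 against 389.6 and 123.1. Socs3 was called higher without control replicate 1, at a log2 fold change of 1.496 (adjusted p = 0.0148, range 0.0148 to 0.917). Wnt4, a Wnt ligand of mature islets, fell from 201.9 and 255.1 CPM to 47.54 and 48.16 (log2 fold change -2.25), and Sfrp5, a secreted Wnt antagonist, from 43.45 and 60.18 to 11.19 and 5.35. Igfbp5, an IGF-binding protein, rose from 81.52 and 40.9 CPM to 210.4 and 272.2 (log2 fold change 1.98). Insrr, the insulin receptor-related receptor of β-cells, fell from 640.9 and 752.4 CPM to 59.19 and 20.4 (log2 fold change -4.12, adjusted p = 0.0135), among the 12 largest falls.

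**Figure D4:**
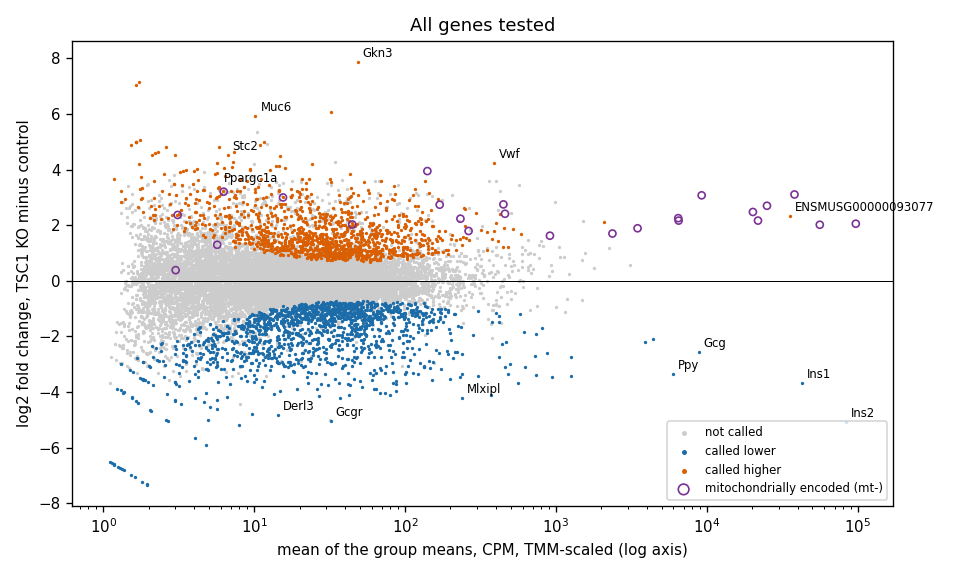
Log2 fold change (TSC1 KO minus control) against mean level (CPM, log axis) for the 14515 genes tested. Orange points were called higher, blue points lower and grey points not called, and open purple circles are mitochondrially encoded genes. Ins1 and Ins2 stand alone at the lower right, and the upper right is occupied by mt- rows and by the unnamed row ENSMUSG00000093077.

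Changes were unequal across the range of abundance. Of the 1000 genes with the largest share of counts in control islets, 273 fell and 47 rose. Of the 1000 with the largest share in knockout islets, 42 fell and 231 rose. These counts follow in part from ranking by a group that enters the comparison and are descriptions. The row ENSMUSG00000093077, which has no symbol in the reference used here, took 5.22% and 5.49% of counts in knockout islets and 1.28% and 1.26% in controls (log2 fold change 2.34 ± 0.44 SE, adjusted p = 0.0225). Among rows that rose outside the mt- rows it took the largest share of counts in knockout islets.

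Leaving the mt- rows out before scaling changed the results little when TMM was kept. Of 14631 genes then tested, 1169 were called higher (7.99%) and 1469 lower (10.0%). The log2 fold changes of the 14368 genes tested in both fits moved by a median of -0.024. Of 2679 genes called with the mt- rows in, 1155 were called higher and 1443 lower in both, 79 higher and 2 lower calls were lost, and none changed sign. Ins2, Hspa5, Nkx6-1 and Pecam1 kept their calls, with log2 fold changes of -5.09, -1.73, -3.30 and 1.67. The size factor mattered more than the rows. With library size alone as the scaling, 756 genes were called higher and 1961 lower, and the median of all genes moved to -0.25. With library size alone and the mt- rows left out, 2922 were called higher and 872 lower and the median moved to 0.41. When Ins1 and Ins2 were left out as well, 1054 were called higher and 1573 lower at a median of -0.08. The last 2 settings were chosen after seeing the data. Directions of lists with medians near 0, such as nuclear respiratory chain subunits, mTORC1 complexes and the ATF4 list, are therefore relative to the scaling. The lists of granule cargo, receptors, β-cell factors, ER chaperones and heat shock chaperones kept negative medians under each of these scalings, at -2.31, -2.30, -1.51, -0.63 and -0.76 with the mt- rows left out and library size alone.

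**Figure D5:**
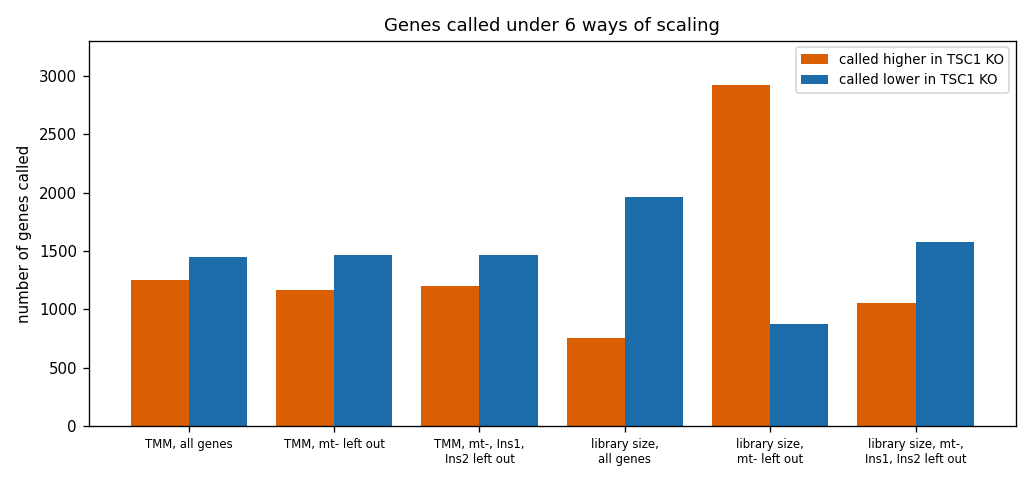
Number of genes called higher (orange) and lower (blue) in TSC1 KO islets by edgeR under 6 ways of scaling. The 3 TMM settings give between 1169 and 1252 higher calls, while library size alone gives 756 with all genes and 2922 with the mt- rows left out.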

How the data were processed

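The values used are the raw counts that the authors deposited for whole mouse islets, whole numbers of reads per Ensembl gene without normalization. Tools named in the submitters' processing notes are HTSeq 0.7.1, GSNAP, DESeq2 1.16.0 and cutadapt 1.13. Those notes name mm9 and NCBIM37 as builds, with no role for either. Whether counting used strand is not stated, so reads of overlapping antisense genes cannot be told apart. Per the labels' protocols the libraries were made with a strand-marking kit from low amounts of RNA. The count table of these 4 libraries holds gene rows only. Symbols were found for 32620 of 37310 identifiers (87.43%) in a later annotation, and promoters come from RefSeq's table for GRCm38.p6, a later build than those named for the files.

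The 4 libraries were fitted alone with edgeR 4.0.16 (quasi-likelihood F test, two-sided, robust) in R 4.3.3, after filterByExpr (minimum count 10, minimum total 15) and TMM scaling. A gene near the floor in either group could pass this filter through the other group alone. Its call is then a description only, as for Stc2, Ppargc1a, Onecut1, Cftr, Egln3, Derl3 and Gcgr. The p-values were adjusted by Benjamini-Hochberg across the whole table, and genes under 0.05 were called. All adjusted p-values are from edgeR unless another tool is named. SE is an approximate standard error, taken as the size of the log2 fold change divided by the square root of its F statistic. With 2 libraries per group both values are printed in place of a mean and SD. The code was tested on simulated data with known changes. Alternatives were the mt- rows, alone or with Ins1 and Ins2, left out of the totals, library size as the only scaling, no filter, DESeq2 1.42.0, limma-voom (limma 3.58.1), a spread shared over all 8 islet libraries of the series (the only use of its second islet table), the replicate number as a block, and each library left out in turn. The table of β-cells was not used.

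The labels do not say if replicates are different mice. The p-values therefore rest on the spread between these samples alone, and that spread may be technical. Replicates of a group differed by far more than sampling noise (chi-square per degree of freedom 23.37 in control and 10.17 in knockout islets). The 95% Wilson interval of a library's share of counts is no wider than ± 0.0522 percentage points and covers counting error only. The common biological coefficient of variation was 0.253.

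The members and the 49 gene lists were chosen with earlier results of these data known. Genes were named by rule: the 12 largest rises and falls among called genes with a symbol and a mean of at least 10 CPM in the higher group, up to 4 called members of lowest p and the first 2 tested members of each list, the 8 genes with the largest share of counts in each group, and Tsc1 and Tsc2. The islet markers Iapp, Chga, Chgb and Sst were named in the check of the tissue, and the genes named for an element in their promoter after the search. Further genes outside the rule were chosen after their values were seen: Pam, Npy, Pcsk1, Pcsk2, Foxo1, Hnf4a, Glis3, Exoc6, Flt1, mt-Atp6, Atp4a, the B-cell genes and the genes without a count. Some genes that the rule names are not reported here.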

Additional observations from a re-analysis of the deposited data

How the results depend on the processing

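Against 1252 genes called higher and 1451 lower, library size as the only scaling gave 756 higher, and a spread shared over the 8 islet libraries gave 2030 higher and 2316 lower. With the mt- rows left out and library size alone, a setting chosen after seeing the data, the counts were 2922 and 872. Leaving out 1 library in turn gave 0 to 2156 higher and 0 to 1859 lower calls, and the lone library of a group was then assumed to vary like the other group. Both knockout libraries were needed for any edgeR call, and the 2156 came without control replicate 1. The replicate number as a block gave 727 higher and 921 lower. With 2 libraries a group, the deviations from the group means mirror each other. Their correlation is therefore a single value whose sign is set by the numbering. It was -0.0547 between same-numbered and 0.0547 between other libraries over 14515 genes. A value this small shows little shared deviation, but it cannot decide whether the numbers pair the libraries. The lower counts under the block therefore stand as a limit on the calls. Of 163 genes named by rule and called, 37 lost the call under the block, 10 with library size alone, 8 with DESeq2, 3 with limma-voom, 5 without a filter, 4 without control replicate 1, 16 without control replicate 2 and 163 without either knockout library. None of the 163 changed sign in any of these settings. For the fits without a library this adds no support, since the groups overlap in no called gene. Genes without a call did change sign. With mt- rows left out and library size alone the log2 fold change was 0.33 for Tfam, 0.13 for Tsc1, 0.13 for Pam and 0.15 for Canx, and with library size alone it was -0.14 for Mtor and -0.028 for Flt1. Over the 4 fits without 1 library it ran from -0.27 to 0.16 for Tfam, -0.12 to 0.40 for Mtor, -1.70 to 1.015 for Xist, -0.17 to 1.496 for Socs3, -0.73 to 0.37 for Tsc1 and -0.10 to 0.55 for Flt1. The cause of these differences was not tested. Depth limits rows of a few counts most, since the knockout libraries hold the fewest counts outside the mt- rows.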

Other observations

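Oxygen-sensing, lysosomal and circadian genes, which belong to no comparison above, are given here. Of 19 tested hypoxia response genes 4 were higher (21.1%, beside 8.63% of all genes) and 2 lower (10.5%, beside 10.0%). Without control replicate 1 the list gave 7 higher and 3 lower, and with library size as the only scaling 2 higher and 4 lower. Egln3, an oxygen-sensing prolyl hydroxylase, stood at 10.02 and 12.37 CPM in knockout islets and 2.05 and 0.29 in controls (log2 fold change 3.24, edgeR adjusted p = 0.0347, with a log2 fold change of 5.12 without control replicate 1). P4ha1, a collagen prolyl hydroxylase that HIF induces, went the other way, from 63.98 and 57.67 CPM in controls to 24.47 and 24.41 (log2 fold change -1.31, edgeR adjusted p = 0.0147). The list therefore holds members called in both directions. Of 34 tested genes of lysosomes and autophagy 4 were lower (11.8%, beside 10.0% of all genes) and none higher, while 3 were higher and 1 lower with mt- rows left out and library size as the only scaling. Among the 4 was the proton pump subunit Atp6v1b2, at 64.32 and 73.24 CPM against 159.2 and 170.4 (log2 fold change -1.26, edgeR adjusted p = 0.0192). Of 19 tested clock genes 1 was lower and none higher, but 6 were higher and 1 lower with mt- rows left out and library size as the only scaling, and 4 higher and 2 lower with the spread shared over the 8 islet libraries. The clock gene called lower was Cry2, a repressor of the clock, at 59.66 and 55.18 CPM against 129.9 and 210.4 (log2 fold change -1.57, edgeR adjusted p = 0.0229).

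Muc4, a membrane mucin, was among the 12 largest falls, at 4.66 and 2.68 CPM in knockout islets and 39.34 and 102.7 in controls (log2 fold change -4.22, edgeR adjusted p = 0.0181). It fell while the gland mucin Muc6 rose. Hapln4, a link protein of the extracellular matrix, was at 3.26 and 2.34 CPM against 37.13 and 65.47 (log2 fold change -4.16, edgeR adjusted p = 0.0105).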
